A study of Rattus norvegicus with 18 samples.

Results

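The action of photobiomodulation (PBM) alone on the retina of the rat was examined by setting the 3 arrays of retinas exposed to PBM only against the 3 arrays of control retinas. These 6 arrays were chosen by their titles from the 18 arrays of the series. Few entities differed by more than 2-fold with an adjusted p under 0.05. Among those with a gene name, Chst3 rose 3.58-fold and Ldb2 fell 2.08-fold. The other 37 entities that passed the same limits carried no gene name, and all 37 fell.

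The PBM group were Sprague Dawley rats aged P80 to P120, raised in 5 lux cyclic light and fed a vegetable matrix. They were placed under a 670 nm source for 3 min once a day on 5 days, and their retinas were taken 24 h after the last exposure. The control group had the same strain, age range, rearing light and diet, without the source and without damaging light. The fluence at the eye was 10 J/cm2 according to the sample labels, and the study's methods give a lower value. Each exposure also involved restraint of the rat by hand. No sham-handled group is described, so red light and handling cannot be told apart. Each array held the retina of 1 eye from a separate animal, both sexes were used in the study, and the sex behind each array is not given.

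Of the other 4 groups, saffron (saffron feeding without damaging light), LD (24 h of bright light alone) and PBMLD (PBM and then that light) served as comparisons. SafLD, saffron and then the light, is given where levels in all groups are shown. All values were log2 intensities, so that a difference of 1 is a 2-fold change. Entities were fitted with limma on the 18 arrays, and below an entity is termed called if it differed by more than 2-fold with an adjusted p under 0.05, the adjustment running over the 29214 entities. A retina was measured whole, so fewer cells of a type and less RNA per cell cannot be told apart.

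PBM is exposure of tissue to red or near-infrared light at an intensity too low to heat it. The absorber most often proposed is cytochrome c oxidase, the last enzyme of the mitochondrial electron transport chain, which passes electrons to oxygen while protons are pumped to drive ATP synthase. Photoreceptors are packed with mitochondria and are damaged by bright white light, and red light given beforehand is studied as a way to protect them.

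Replicate arrays were alike, with correlations over all entities from 0.993 to 0.994 among PBM arrays and from 0.990 to 0.994 among control arrays. The median level was 6.150 to 6.155 in PBM arrays and 6.125 to 6.139 in control arrays. The SD over entities was 2.398 to 2.407 in PBM arrays and 2.436 to 2.472 in control arrays, so both measures separated the groups slightly. With the entities divided into 4 equal classes from the dimmest to the brightest, the median difference (PBM minus control) was 0.07, 0.07, -0.02 and -0.04. Defining markers showed both groups to be retina. The mean level of the 23 measured rod markers was 12.15 to 12.17 in PBM arrays and 12.04 to 12.18 in control arrays. Markers of tissues next to the retina were present in both groups, with overlapping ranges. Lens markers averaged 8.70 to 9.09 in PBM arrays and 8.76 to 9.32 in control arrays, and pigment epithelium markers averaged 6.71 to 7.12 in PBM arrays and 6.91 to 7.43 in control arrays.

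Of the 29214 entities 39 were called (0.133%), 1 higher (0.00342%) and 38 lower (0.13%) in PBM retinas. The 15310 entities with 1 gene symbol held 2 of the calls (0.0131%), and the 13581 entities without a symbol held 37 (0.272%). Without the fold limit 45 entities passed (0.154%), 4 higher (0.0137%) and 41 lower (0.14%). A difference of more than 2-fold was measured for 35 entities in the higher direction and 93 in the lower direction, so that 34 and 55 of them stayed uncalled. At an unadjusted p below 0.05 there were 1549 entities higher (5.3%) and 1360 lower (4.66%).

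**Figure D1:**
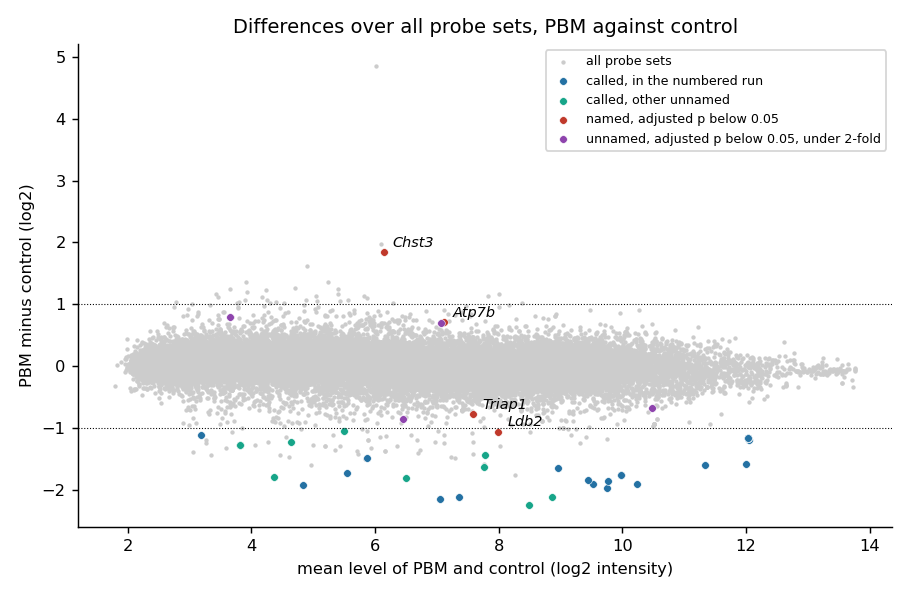
The difference between PBM and control arrays (log2, vertical) against the mean level of both groups (log2 intensity, horizontal) for all 29214 entities, with dotted lines at 2-fold. Coloured points passed an adjusted p of 0.05 and lie mostly below the lower line, over the whole range of levels, and Chst3 is the single called entity above the upper line.

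Chst3 encodes a sulfotransferase that adds sulfate to the carbon-6 position of galactosamine in chondroitin chains, the sugar chains of matrix proteoglycans. Its level was 6.96, 7.01 and 7.21 in PBM arrays, against 5.33, 5.07 and 5.27 in control arrays. The lowest PBM array lay well above the highest control array. The mean was 7.06 ± 0.13 in PBM and 5.22 ± 0.13 in control retinas (SD, n = 3 each), a difference of 1.84 ± 0.21 (SE) with an adjusted p of 0.000605. With any 1 of the 6 arrays left out, the difference ran from 1.76 to 1.89 and the call was kept.

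The level of Chst3 was also above control in the groups that received no red light. It was 6.01, 6.58 and 6.48 in saffron arrays, 6.29, 7.12 and 6.34 in LD arrays, and 7.11, 7.72 and 7.61 in SafLD arrays. PBM retinas exceeded saffron retinas by 0.70 ± 0.21, which did not pass (adjusted p = 0.181). With arrays weighted by their reliability this difference was 0.84 and passed (adjusted p = 0.0436). In PBMLD arrays the level was 7.34, 7.44 and 7.37, all above the LD arrays, and PBMLD exceeded LD by 0.79 ± 0.21 (adjusted p = 0.135). The rise in Chst3 was thus not shown to be particular to PBM.

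The stretch around the start of Chst3 is printed because this is the 1 named gene called higher. It runs from 250 bases before to 50 bases after the start in the RefSeq annotation of GRCr8, at chr20:28694477-28694776 on the minus strand, in the orientation of the gene. Capitals mark the GC box letters (GGGCGG), searched on both strands.
Chst3: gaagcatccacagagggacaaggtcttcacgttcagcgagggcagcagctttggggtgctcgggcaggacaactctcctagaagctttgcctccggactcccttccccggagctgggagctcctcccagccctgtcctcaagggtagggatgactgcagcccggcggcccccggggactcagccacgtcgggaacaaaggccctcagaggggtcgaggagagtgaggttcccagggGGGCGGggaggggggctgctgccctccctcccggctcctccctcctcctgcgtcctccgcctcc
The GC box letters occurred once here, and 33.1% of the 33469 promoter windows in the same table hold them. The letters of the antioxidant response element core (TGACNNNGC, in 12.1% of windows) were not in this window on either strand.

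Other enzymes of chondroitin and heparan sulfate synthesis did not pass the test. Of the 27 measured genes of that list, Chst3 alone passed the adjusted p of 0.05. In sign 13 were positive and 14 negative, and the median difference was -0.01 against 0.01 over all 14506 genes. Chst11 and Chst12, which sulfate the carbon-4 position of the same chains, differed by 0.24 ± 0.25 and -0.52 ± 0.15 (adjusted p = 0.794 and 0.231). Chst7, a second carbon-6 sulfotransferase, differed by -0.01 ± 0.19. Chsy1, which polymerises the chain, differed by 0.16 ± 0.13. None of the 25 measured proteoglycan core proteins and hyaluronan genes passed by limma, and none had an unadjusted p below 0.05. The median sign of the synthesis list turned with scaling, to 0.012 after quantile normalization and 0.009 after cyclic loess.

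Ldb2 encodes a nuclear adaptor that binds LIM domains and bridges LIM homeodomain transcription factors into complexes. Its level was 7.61, 7.53 and 7.27 in PBM arrays, against 8.57, 8.53 and 8.47 in control arrays. The ranges did not overlap, and PBM array 3 was the lowest of all 18. The mean was 7.47 ± 0.18 in PBM and 8.52 ± 0.05 in control retinas (SD, n = 3 each), a difference of -1.06 ± 0.11 (adjusted p = 0.000605). Without PBM array 3 the difference was -0.95 (adjusted p = 0.00786), which is under 2-fold, so that the call then ended on the fold limit alone.

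Unlike Chst3, Ldb2 was also lower in PBM than in saffron retinas, by 0.97 ± 0.11 on the log2 scale (PBM minus saffron, adjusted p = 0.000129). The saffron arrays were at 8.41, 8.62 and 8.29. In retinas that received damaging light, Ldb2 was at 8.25, 8.30 and 8.32 in PBMLD arrays, against 8.15, 8.15 and 8.20 in LD arrays, a difference of 0.12 ± 0.11 (adjusted p = 0.717). The PBM difference with light minus that without light was 1.18 ± 0.16, and this interaction passed (adjusted p = 0.0303). Over all entities the interaction passed for 1 in each direction (0.00342% each). That of Ldb2 did not pass after cyclic loess (1.13, adjusted p = 0.0611), nor in 5 of the 6 cases with 1 PBM or control array left out.

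Other members of the LIM list did not pass. Ldb1, the close relative of Ldb2, differed by -0.17 ± 0.13 (adjusted p = 0.711). Of the LIM homeobox genes, Isl1, used by bipolar and other inner retinal cells, differed by -0.31 ± 0.14, and Lhx2, required for early eye formation, by -0.29 ± 0.16 (adjusted p = 0.467 and 0.572). The median over the 15 measured members was -0.07.

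A pair of named genes passed the adjusted p but stayed under 2-fold. Triap1, whose small mitochondrial protein takes part in moving phosphatidic acid between the mitochondrial membranes, was at 7.19, 7.22 and 7.19 in PBM arrays, against 7.97, 7.99 and 7.99 in control arrays. It fell 1.72-fold (-0.78 ± 0.13, adjusted p = 0.0127), and its replicates within each group were nearly equal. Atp7b, a copper-transporting ATPase, was at 7.44, 7.35 and 7.63 in PBM arrays, against 6.87, 6.69 and 6.73 in control arrays. It rose 1.63-fold (0.71 ± 0.13, adjusted p = 0.0375) and was also higher than in saffron retinas (0.72 ± 0.13, adjusted p = 0.0184). Neither passed once any 1 PBM or control array was left out, where the adjusted p ran from 0.0645 to 0.0826 for Triap1 and from 0.0799 to 0.262 for Atp7b. The excess of Atp7b over saffron retinas was lost in 2 of those 6 cases.

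The named genes next in order lay just outside the limit. Med27, a subunit of the Mediator complex, differed by -0.51 ± 0.10 (adjusted p = 0.0512). Znrd2 differed by -0.54 ± 0.11 (adjusted p = 0.0559). Gps2, a subunit of the NCoR corepressor complex, differed by -0.61 ± 0.12 (adjusted p = 0.0712), and Imp3, which processes ribosomal RNA in the nucleolus, by -0.69 ± 0.14 (adjusted p = 0.0713). Lamtor1, which anchors the Ragulator complex to lysosomes, differed by -0.63 ± 0.13 (adjusted p = 0.0796).

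**Figure D2:**
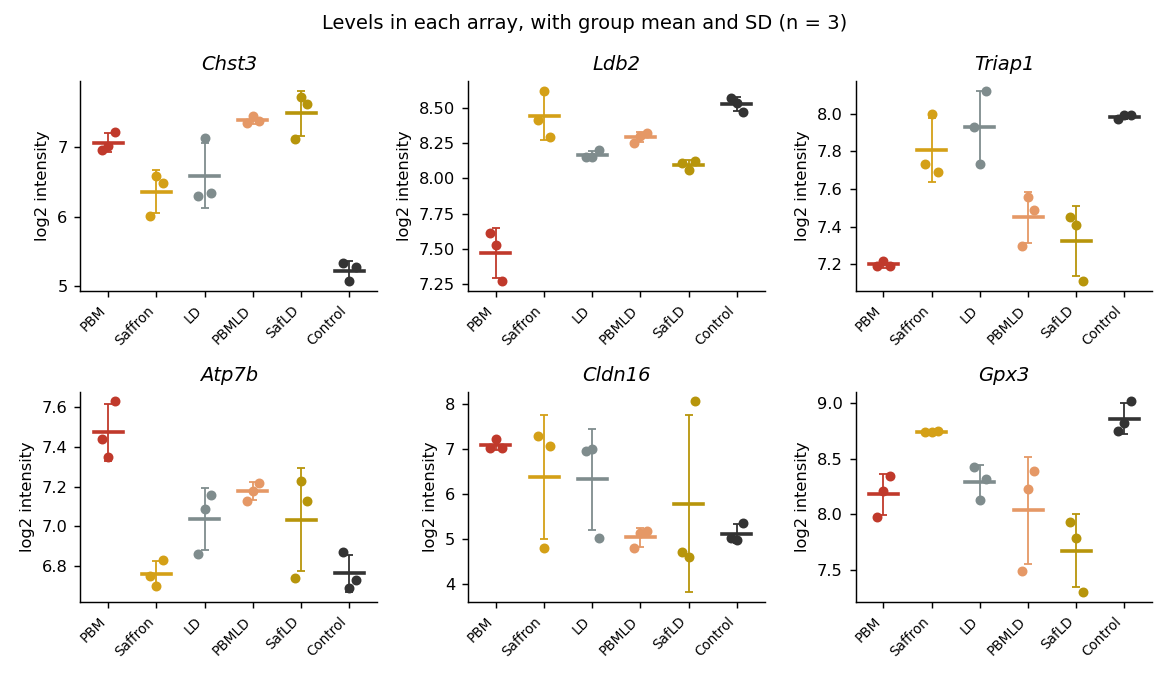
Level (log2 intensity) of 6 genes in each of the 18 arrays, as points, with the group mean and SD as bars (n = 3). Chst3 was lowest in control arrays, Ldb2 was lowest in PBM arrays, and Cldn16 and Gpx3 did not pass the test.

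Other named genes differed by more than 2-fold without passing. Cldn16, a tight junction claudin known from the kidney, was at 7.02, 7.21 and 7.02 in PBM arrays, against 5.02, 4.97 and 5.35 in control arrays. The difference was 1.97 ± 0.75 (adjusted p = 0.398). In PBMLD arrays, which also received red light, Cldn16 was near the control level, at 4.79, 5.14 and 5.17 (PBMLD minus control -0.08 ± 0.75). Its level varied within the groups without red light. It was at 7.28, 4.80 and 7.06 in saffron arrays and at 6.94, 6.99 and 5.03 in LD arrays. SafLD array 3 was at 8.05, above all PBM arrays, and the other SafLD arrays lay below all control arrays. This spread entered the shared error. Fitted on the 6 PBM and control arrays alone, Cldn16 passed (adjusted p = 0.000697). Ttr, a thyroid hormone and retinol carrier of the pigment epithelium, differed by -1.12 ± 0.69 with overlapping groups. Hbb-b1, a beta globin of red blood cells, differed by -1.07 ± 0.53, and Rbm39, a splicing factor, by -1.02 ± 0.38 (adjusted p = 0.525 and 0.38). Rbm39 was at 4.04, 4.63 and 4.19 in PBM arrays, against 5.46, 5.24 and 5.22 in control arrays. PBMLD arrays were at 4.39, 6.61 and 4.72, a spread that also entered the shared error. Rbm39 was called by limma with array weights (adjusted p = 0.0283) and without PBMLD array 2 (adjusted p = 0.0266).

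Rpl39, a protein of the large ribosomal subunit, was at 8.75, 8.77 and 8.71 in PBM arrays, against 9.49, 9.53 and 10.24 in control arrays. The difference of -1.01 ± 0.25 did not pass (adjusted p = 0.169). Its other entities on the array were also lower in mean, and near-identical ribosomal protein pseudogenes could share their signal. LOC366310 differed by -1.19 ± 0.29 (adjusted p = 0.165), and its other entities, which hold the same values as each other, by -0.88. Between PBMLD and LD arrays, Rpl39 was lower by 1.22 ± 0.25 on the log2 scale (adjusted p = 0.0463).

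Most of the calls came from entities without a gene name, and these fell into 2 parts. The first was an unbroken run of 63 unnamed entities with consecutive odd numbers, from 10722363 to 10722487, which is the run that held the most calls. The mean was lower in PBM than in control retinas for 60 of them. The 27 that were called all lay among the 31 entities from 10722421 to 10722481, and the other 36 differed by -1.39 to 0.14 without a call. No sequence or gene name for these entities is in the tables used here. Many of them hold exactly the same values in all arrays, so that the 63 come to 43 distinct profiles and the 27 called to 17. These are not independent measurements.

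Within the run the largest fall was that of entity 10722427, at 6.09, 5.87 and 5.99 in PBM arrays, against 8.24, 8.08 and 8.03 in control arrays (-2.14 ± 0.27, adjusted p = 0.000859). Entity 10722461 was among the brightest, at 11.38, 11.07 and 11.19 in PBM arrays, against 12.76, 12.86 and 12.77 in control arrays (-1.58 ± 0.18, adjusted p = 0.000605). A set of 10 called entities with the same values, among them 10722421, was at 11.61, 11.30 and 11.46 in PBM arrays, against 12.56, 12.72 and 12.56 in control arrays (-1.16 ± 0.15). In none of these did a PBM array reach a control array. The other members of the run among the 10 largest unnamed calls were 10722459, 10722465, 10722435, 10722449, 10722481, 10722471 and 10722429, with differences from -2.11 to -1.84. Of the called entities of the run, 10722425 and 10722479 lost the call when any 1 of the 6 arrays was left out, and the others kept it in each case.

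The run was low in 3 of the 6 groups. Set against the mean of the control arrays, the median of its 17 called profiles was -1.66, -1.91 and -1.76 in PBM arrays. It was -2.08, -1.82 and -1.81 in PBMLD arrays and -1.50, -2.33 and -2.17 in SafLD arrays. In saffron arrays it was 0.43, 0.51 and 0.29, all above the 0.04, 0.00 and -0.03 of the control arrays themselves. LD arrays were at 0.11, 0.03 and 0.62. The 3 low groups did not overlap the other 3.

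**Figure D3:**
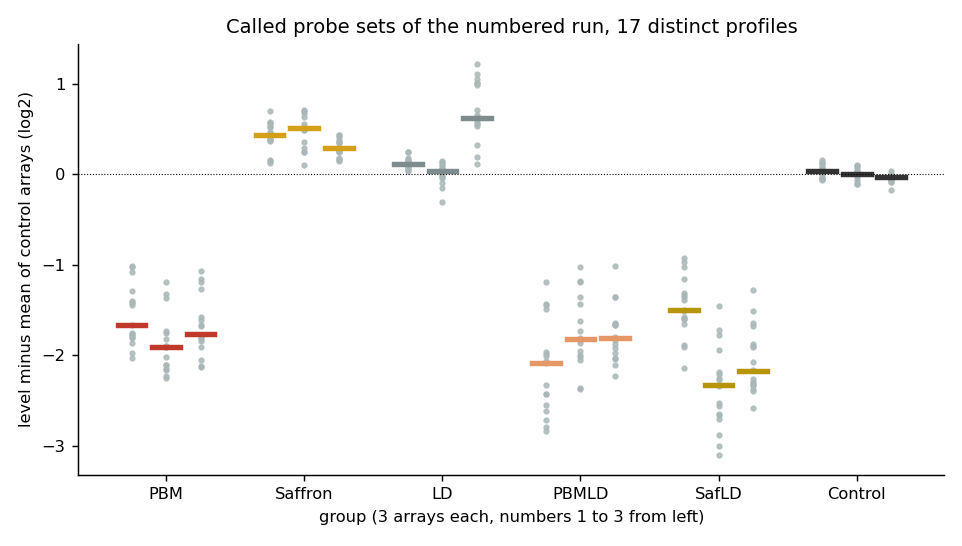
Level of the 17 distinct called profiles of the numbered run in each of the 18 arrays, relative to the mean of the control arrays (log2, points), with the median of each array as a bar. The bars lie between -1.50 and -2.33 in PBM, PBMLD and SafLD arrays, and between -0.03 and 0.62 in saffron, LD and control arrays.

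The second part were 10 unnamed entities outside the run, which hold 9 distinct profiles. The largest falls were those of 10855946 and 10862359. The level of 10855946 was 7.32, 7.27 and 7.53 in PBM arrays, against 9.58, 9.54 and 9.71 in control arrays (-2.24 ± 0.32, adjusted p = 0.00253). That of 10862359 was 7.60, 7.92 and 7.90 in PBM arrays, against 9.91, 9.86 and 9.99 in control arrays (-2.11 ± 0.30, adjusted p = 0.00216). Both were also low in PBMLD arrays, and the falls relative to LD were 2.59 and 2.42 on the log2 scale. In SafLD arrays, which received no red light, they differed from control by -2.63 and -2.70 (adjusted p = 0.00013 and 4.35e-05).

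Entity 10721700 was at 7.27, 6.94 and 6.98 in PBM arrays, against 8.28, 8.63 and 8.60 in control arrays (-1.44 ± 0.21, adjusted p = 0.00331). It was also below control in SafLD arrays (-1.13, adjusted p = 0.0077). Together with 10855946 and 10862359 it kept its call whichever of the 6 arrays was left out. The 7 others lost it in 3 to 6 of those cases. When the numbered run was left out of the test, an alternative chosen after seeing the data, the 3 entities 10855946, 10862359 and 10721700 were the unnamed calls that remained. The others then had adjusted p from 0.0512 to 0.104.

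Entity 10753017 followed another pattern, in which all other groups lay below control. It was at 3.28, 3.90 and 3.23 in PBM arrays, against 5.22, 5.47 and 5.09 in control arrays (-1.79 ± 0.29, adjusted p = 0.011). Saffron arrays were as low, at 3.89, 3.43 and 3.37 (PBM minus saffron -0.09 ± 0.29, adjusted p = 0.923), and SafLD arrays were at 3.81, 3.62 and 3.78. In LD arrays it was at 4.95, 3.58 and 3.58 and in PBMLD arrays at 3.86, 3.23 and 3.45, and PBMLD did not differ from LD by the test (-0.52, adjusted p = 0.517). The tables of the study pair this number with RGD1310778, which RefSeq lists as an older name of Mis18a, a gene of centromere assembly. The platform table gives it no symbol, so it was counted as unnamed.

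Entities 10703224 and 10700656 differed by -1.80 and -1.63, and 10797013 and 10932228, with equal values, by -1.28. Entities 10765728 and 10900127 differed by -1.23 and -1.05. Of the unnamed entities under 2-fold, 10812312 and 10852246 rose by 0.70 and 0.80, and 10788014 and 10889649 fell by 0.86 and 0.68 on the log2 scale. The largest difference of any entity was that of 10886988, at 8.65, 7.99 and 8.67 in PBM arrays, against 3.56, 3.08 and 4.11 in control arrays (4.85 ± 1.22). It did not pass (adjusted p = 0.184). Saffron arrays, at 8.29, 9.26 and 7.93, and PBMLD arrays, at 8.34, 7.99 and 8.26, were at the level of PBM arrays. The LD arrays, at 3.24, 3.19 and 9.03, and the SafLD arrays, at 3.93, 8.45 and 8.45, were split between the levels.

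Retinas with and without PBM could be compared a second time, in PBMLD against LD arrays, which share no array with the PBM and control groups. Both comparisons took the SE of each entity from the same fit to all arrays. A small SE favoured a call and entered the second test as well, so the number passing there is not independent of the choice. The 39 entities called in PBM against control hold 28 distinct profiles. Of the 39, 38 differed in the same direction in PBMLD against LD, and 33 of these passed the adjusted p of 0.05. Over all entities 0.25% passed lower and 0.0342% higher in PBMLD against LD, and 41.8% were lower at any p. The 33 comprised all 27 entities of the run and 6 of the 10 unnamed entities outside it. Neither Chst3 nor Ldb2 was among them. Over the 27 called entities of the run, copies included, the median difference was -1.87 with light (PBMLD minus LD) and -1.58 without it (PBM minus control). No entity of the run had a difference between these that passed. In SafLD arrays, which received no red light, 37 of the 39 differed from control in the same direction with an adjusted p below 0.05. Those 37 were all 27 of the run, 9 of the 10 unnamed entities outside it, and Chst3. That comparison uses the same 3 control arrays by which the 39 were chosen, so its count is a description.

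**Figure D4:**
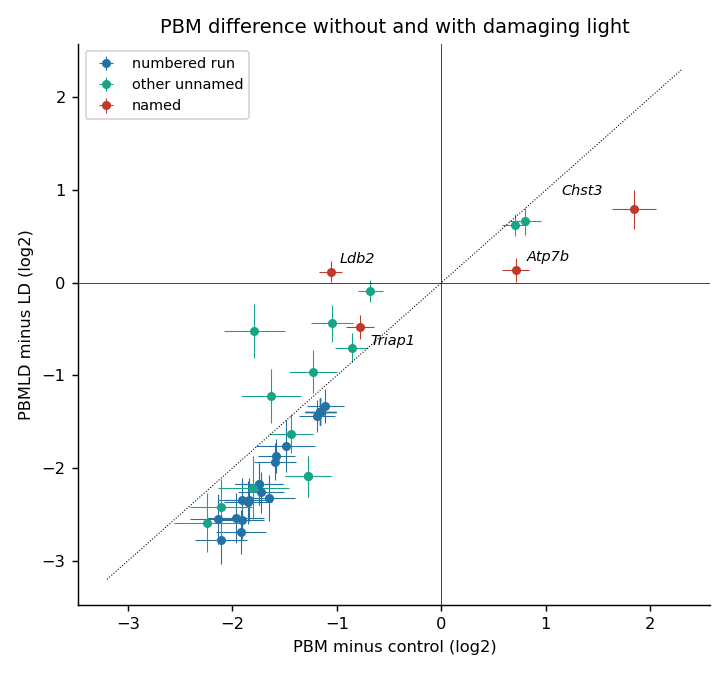
Difference between PBMLD and LD arrays (log2, vertical) against that between PBM and control arrays (log2, horizontal) for the 45 entities with an adjusted p below 0.05 in PBM against control, with SE bars and a dotted line of equality. The run lies below the line at the lower left, and Ldb2 and Atp7b lie near 0 on the vertical axis.

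Against saffron, the other pretreatment without damaging light, 37 of the 39 entities differed in the same direction with an adjusted p below 0.05 (PBM minus saffron). This comparison uses the same 3 PBM arrays by which the 39 were chosen, so the count is a description and not a second measurement. Over all entities 0.394% passed lower and 0.0411% higher. The other 2 were Chst3 and 10753017, both described above.

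The genes of the mitochondrial electron transport chain were examined as the pathway of the proposed absorber. Of the 17 measured nuclear genes of cytochrome c oxidase and its assembly, none passed by limma, with 3 lower and none higher at an unadjusted p below 0.05 (over all genes 4.77% were lower and 4.38% higher on that measure, and 0.0276% passed the adjusted p). In sign 8 were positive and 9 negative. The median difference was -0.13, against 0.01 over all genes, and it was -0.022 after quantile normalization and -0.067 after cyclic loess. Cox4i2, an isoform of subunit IV linked to low oxygen, was at 7.98, 7.98 and 8.03 in PBM arrays, against 8.71, 8.53 and 8.93 in control arrays. The groups did not overlap, but the difference of -0.73 ± 0.22 did not pass (adjusted p = 0.28). Surf1, an assembly factor, differed by -0.44 ± 0.15 and Cox5b by -0.36 ± 0.17. The common isoform Cox4i1 differed by 0.01 ± 0.21.

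In NADH dehydrogenase, the entry enzyme of the chain, 0 of 33 measured genes passed by limma and 4 were lower at an unadjusted p below 0.05, with a median of -0.113, against -0.057 after quantile normalization and -0.058 after cyclic loess. Ndufs8 and Ndufs4 differed by -0.65 ± 0.19 and -0.62 ± 0.17 (adjusted p = 0.234 and 0.206). Of 15 genes of ATP synthase 0 passed and 1, Atp5mg, was lower at an unadjusted p below 0.05 (-0.62 ± 0.24, adjusted p = 0.405). The median of this list was -0.132, against -0.036 after quantile normalization and -0.068 after cyclic loess. The catalytic subunits Atp5f1a and Atp5f1b differed by 0.02 ± 0.11 and 0.05 ± 0.12. Of 16 genes of mitochondrial biogenesis and dynamics 0 passed and 1 was higher at an unadjusted p below 0.05. Ppargc1a, the master coactivator of mitochondrial biogenesis, differed by -0.05 ± 0.14, and Mfn1, which fuses outer membranes, by 0.48 ± 0.17 (adjusted p = 0.353). These medians lie in the same direction as the difference between bright and dim entities described above, whose part in them was not tested.

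Genes of defence against oxidants did not pass either, 0 of 25 by limma with 1 higher and 2 lower at an unadjusted p below 0.05. Gpx3, a secreted glutathione peroxidase, was at 7.98, 8.21 and 8.35 in PBM arrays, against 8.75, 8.82 and 9.02 in control arrays (-0.68 ± 0.20, adjusted p = 0.251). Txnrd1, which reduces thioredoxin, differed by 0.58 ± 0.17 and Hmox2, the constitutive heme oxygenase, by -0.49 ± 0.12 (adjusted p = 0.258 and 0.163). Hmox1, the inducible form, was at 5.04, 5.19 and 5.10 in PBM arrays, against 4.77, 4.55 and 5.04 in control arrays, a difference of 0.32 ± 0.38.

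Genes of stress and inflammation gave differences of the same order. Gfap, the filament protein of reactive glia, was at 6.53, 7.06 and 7.04 in PBM arrays, against 6.91, 6.23 and 6.73 in control arrays, with overlap (0.25 ± 0.27). The chemokine Ccl2 differed by 0.34 ± 0.84, the growth factor Fgf2 by 0.09 ± 0.37 and Stat3 by 0.10 ± 0.18. Ddit3, a transcription factor of the unfolded protein response, differed by -0.80 ± 0.23 (adjusted p = 0.235). In apoptosis, where 0 of 22 genes passed, Apaf1, the core of the apoptosome, was at 7.42, 7.27 and 7.30 in PBM arrays, against 6.74, 6.91 and 6.56 in control arrays (0.59 ± 0.15, adjusted p = 0.184). Its partner Casp9 differed by -0.12 ± 0.15. None of the 24 chemokines and cytokines, 22 interferon response genes or 15 heat shock genes passed by limma, and across these 3 lists 1 gene, Hspa4, had an unadjusted p below 0.05. The largest differences in the first and second of these lists were those of the chemokine Cxcl13 (-0.64 ± 0.31) and the transcription factor Irf1 (-0.43 ± 0.24).

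The remaining genes with RT-PCR assays in the study were likewise not past the test. Agt, the precursor of angiotensin, differed by -0.33 ± 0.15 and Crot, a peroxisomal acyltransferase, by 0.29 ± 0.14 (adjusted p = 0.49 and 0.508). Edn2, an endothelin that damaged photoreceptors are known to release, was at 6.11, 5.54 and 6.04 in PBM arrays, against 5.74, 5.64 and 5.97 in control arrays (0.12 ± 0.20). Differences were smaller still for Socs3, an inhibitor of cytokine signalling (-0.01 ± 0.34), and Fabp5, a fatty acid carrier (0.02 ± 0.48). The autophagy receptor Optn differed by 0.12 ± 0.12, and the chromatin remodelling genes Smarcd1 and Smarcad1 by -0.05 ± 0.16 and -0.08 ± 0.14. Actb and Gapdh, in common use as reference genes, differed by -0.14 ± 0.10 and -0.08 ± 0.09, and the signs of Gapdh and Smarcd1 turned after quantile normalization (0.03 and 0.04) and cyclic loess (0.02 and 0.01).

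In signalling and regulatory lists the member with the largest difference did not pass either. These were Vcam1, an endothelial adhesion molecule (-0.50 ± 0.33), Osmr, the oncostatin M receptor (-0.59 ± 0.38), Ier3, an immediate early gene (-0.47 ± 0.34), and Fgfr3, a fibroblast growth factor receptor (0.38 ± 0.25). The matrix genes Dcn, a small proteoglycan, and Adamts5, an aggrecanase, differed by 0.47 ± 0.63 and 0.36 ± 0.25. The clock repressor Bhlhe41 was at 10.21, 10.05 and 10.11 in PBM arrays, against 10.53, 10.72 and 10.41 in control arrays (-0.43 ± 0.15, adjusted p = 0.357). Sqstm1, an autophagy receptor, differed by -0.24 ± 0.20 and Stard4, a sterol carrier, by 0.48 ± 0.20. Of RNA processing genes, the helicase Ddx17 differed by 0.41 ± 0.18, and Dgcr8, which binds primary microRNAs, by 0.32 ± 0.15 (adjusted p = 0.457 and 0.491).

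Cell type markers did not pass in any list. The median of the 13 cone markers was -0.23, and Opn1mw, the middle wavelength cone opsin, was at 10.47, 10.49 and 10.48 in PBM arrays, against 10.90, 11.01 and 10.73 in control arrays (-0.40 ± 0.15, adjusted p = 0.376). Cone markers Opn1sw and Cnga3 differed by 0.05 ± 0.21 and 0.18 ± 0.13. The median of the 23 rod markers was 0.04, and Gucy2d, a guanylate cyclase of photoreceptors, differed by 0.43 ± 0.24. Rgr, an opsin of the pigment epithelium and Muller cells, differed by -0.66 ± 0.57 with overlapping groups. Gng13 and Pcp2, signalling proteins of ON bipolar cells, differed by -0.86 ± 0.24 and -0.54 ± 0.14 (adjusted p = 0.217 and 0.206), whereas Grm6, the glutamate receptor of the same cells, differed by -0.02 ± 0.19. Sncg, a marker of ganglion cells, was at 10.47, 10.42 and 10.60 in PBM arrays, against 11.01, 10.98 and 11.23 in control arrays (-0.58 ± 0.21, adjusted p = 0.371). The 14 measured ganglion cell markers ran from -0.58 to 0.57, with a median of -0.12. The amacrine cell enzyme Gad2 differed by 0.36 ± 0.24, the highest of the 17 amacrine and horizontal cell markers, whose median was -0.13. Dbi of Muller cells differed by -0.43 ± 0.28 and Lcn2 of reactive glia by -0.69 ± 0.65. Abcb1a, an endothelial efflux pump, differed by 0.36 ± 0.21, and the median of the 19 endothelial and pericyte markers was -0.08. Of neighbouring tissues, the lens crystallin Cryga differed by -0.60 ± 0.89. Krt12, a keratin of the corneal epithelium, was at 6.35, 7.26 and 5.95 in PBM arrays, against 6.25, 5.78 and 9.29 in control arrays, so control array 3 stood apart from the others.

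Of the 19 microglia and macrophage markers 16 were negative, against 6946 of all 14506 genes, with a median of -0.18, and 3 were lower at an unadjusted p below 0.05 (15.8%, against 4.77% of all genes). The largest difference was that of Fcer1g, a signalling chain of Fc receptors (-0.75 ± 0.30, adjusted p = 0.43). C1qb, a chain of complement C1q, differed by -0.53 ± 0.14 and Aif1, the marker known as Iba1, by -0.42 ± 0.16 (adjusted p = 0.203 and 0.402). Their mean level was 5.62 to 5.77 in PBM arrays and 5.77 to 6.01 in control arrays. Of the 37 cytosolic ribosomal proteins 31 were negative, 8 were lower at an unadjusted p below 0.05 (21.6%) and the median was -0.17. Rps27 differed most, by -0.68 ± 0.30 (adjusted p = 0.472). Their mean level was 10.41, 10.44 and 10.51 in PBM arrays, against 10.50, 10.55 and 10.91 in control arrays, so that control array 3 stood apart. The median was -0.06 after quantile normalization. Shares of this size were not particular to microglia and ribosomal proteins. The share lower at an unadjusted p below 0.05 was 23.1% of the 13 bipolar cell markers and 21.4% of the 14 NF-kB signalling genes, with none higher in either list.

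**Figure D5:**
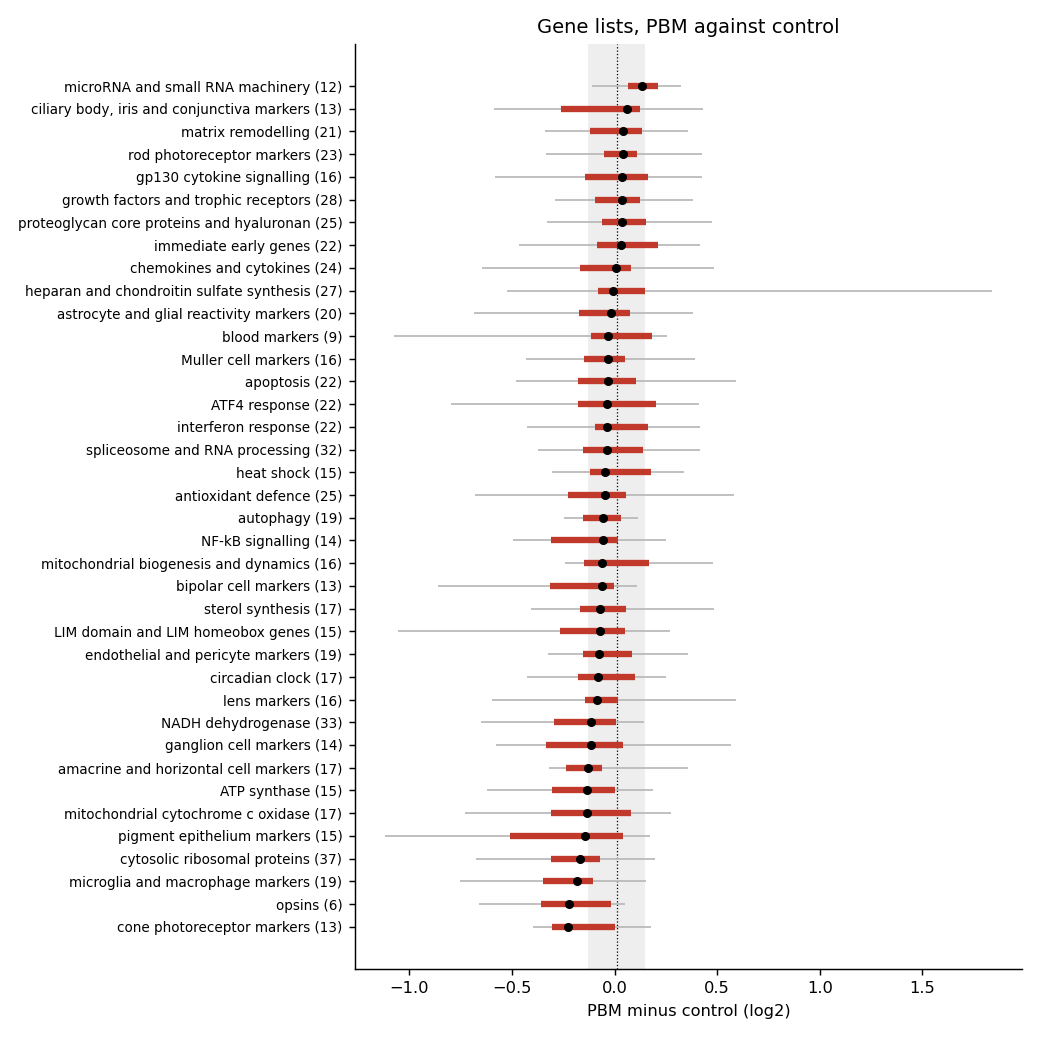
Differences between PBM and control arrays (log2) for the genes of 38 lists (the list of genes with RT-PCR assays is not drawn), with the number measured in brackets, the median as a point, the middle 50% as a thick line and the full range as a thin line. The grey band and dotted line give the middle 50% and the median of all 14506 genes, and most list medians lie inside the band.

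Over all 39 lists, Chst3 and Ldb2 were the only members that passed the adjusted p of 0.05. Under scaling by quantile normalization or cyclic loess the medians of cytochrome c oxidase, cones, microglia and ribosomal proteins stayed negative. Those of heat shock, spliceosome and Muller cell genes turned positive, and those of chemokines and cytokines and of ciliary body, iris and conjunctiva markers turned negative. The median of lens markers was -0.085, and it was 0.014 after quantile normalization and -0.007 after cyclic loess.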

How the data were processed

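Retinal RNA of 6 groups of rats, 3 animals in each, had been hybridised to 18 Affymetrix rat Gene 1.0 ST arrays. Each deposited value is a log2 intensity of 1 probe set (entity) on 1 array, summarised by the authors with RMA, which corrects background, equalises the distributions of arrays by quantiles and combines probes by median polish. Affymetrix Expression Console (version 1.1.2800.19935) is named in the notes of the submitters. The genome build was not given in the sources used here, nor were scan dates or slides, and background correction could not be repeated. Precision was limited by the number of arrays, and an exact test of 3 against 3 cannot go below p = 0.1.

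Gene symbols came from the platform table by probe set number: 15310 entities had 1 symbol, 323 had several and 13581 had none. Of the last, 1618 with numbers below those of the platform table could not be identified. Lists used the brightest probe set of each of 14506 genes. One model with 6 group means was fitted to all arrays by limma (version 3.58.1, with statmod 1.5.0, in R 4.3.3), with 12 residual degrees of freedom and 5.05 from the prior. Tests were two-sided, with Benjamini-Hochberg adjustment. The fit was tested on simulated data with planted changes. Promoter letters came from RefSeq.

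The text names the called entities with a symbol, the 10 largest unnamed calls, the largest member of each list, genes with RT-PCR assays in the study and those nearest each limit. Entity 10886988, some entities of the run and further list members were chosen after their values were seen. The members and the 39 lists (805 genes) were chosen with earlier results of these data known. Alternatives were the methods' t-test, a fit restricted to PBM and control arrays, robust fitting with a variance trend, weights for arrays, no fold limit, 3 scalings, the omission of dim or unidentified entities, and a replicate block. Each PBM, control, PBMLD and LD array was also left out in turn, and no saffron or SafLD array was. Omitting the numbered run, and keeping 1 of each set of identical entities, were added after seeing the data.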

Additional observations from a re-analysis of the deposited data

Results flagged for a closer look

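For 2 entities the difference made by PBM was not the same with and without damaging light, by a test of that difference over all entities (limma, PBMLD minus LD minus the difference of PBM and control). For Ldb2 it was 1.18 ± 0.16 (adjusted p = 0.0303), with the values of each array given above. For the unnamed entity 10782065 it was -1.35 ± 0.20 (adjusted p = 0.0418), and it did not pass after cyclic loess (adjusted p = 0.0611) or with any 1 PBM or control array left out (adjusted p from 0.0895 to 0.226). This entity was at 9.72, 9.73 and 9.83 in PBM arrays, against 9.29, 9.17 and 9.05 in control arrays, and at 9.54, 9.26 and 9.46 in PBMLD arrays, against 10.03, 10.07 and 10.43 in LD arrays.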

How the results depend on the processing

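The counts called were 1 named higher, 1 named lower, 0 unnamed higher and 37 unnamed lower, and by gene list counts 2 genes passed the adjusted p. The methods' t-test at its unadjusted limit gave 2, 5, 8 and 74, with 142 list genes, and after Benjamini-Hochberg 0, 0, 0 and 6, with 0 list genes (4 residual degrees of freedom). The fit of the 6 arrays alone gave 2, 1, 3 and 45. Array weights gave 1, 3, 9 and 73, with 17 list genes, and no fold limit 2, 2, 2 and 39. The share of calls that were lower was 97.4%, against 88.9% by the unadjusted t-test and 88.4% with array weights. Without the numbered run 1, 1, 0 and 3 were called, and 6 of the original calls passed in PBMLD against LD and 9 against saffron. With 1 of each identical set 22 unnamed entities were called lower. Apart from the omission of arrays, the other alternatives kept each of these 4 counts within 1.5 times. Leaving out 1 PBM or control array gave 1 named higher in each case and 0 to 1 named lower (0 without PBM array 3). It gave 0 to 1 unnamed higher (1 without PBM array 1) and 28 to 31 unnamed lower. Leaving out 1 PBMLD or LD array gave 36 to 45 calls in all, and without PBMLD array 2 Rbm39 was also called lower (-1.02, adjusted p = 0.0266). Over the omissions in these 4 groups, 33 to 34 calls passed in PBMLD against LD, and the interaction count was 0 to 1.

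The interaction of Ldb2 was the 1 among the called entities that passed, and the count was 0 after cyclic loess and with the replicate block. The replicate numbers did not pair the arrays: deviations of same-numbered PBM and control arrays correlated at -0.05, -0.05 and 0.20. With the replicate block the counts were 1, 1, 0 and 35, and the interactions of Ldb2 and 10782065 had an adjusted p of 0.0697.

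Some genes far from the limit changed sign. Krt12 was 0.03 with array weights, and without 1 array ran from -1.25 to 0.51 (positive without control array 3). Smarcd1 was 0.04 after quantile normalization, 0.01 after cyclic loess and -0.18 to 0.02 without 1 array, and Gapdh was 0.03 and 0.02 after those scalings. Without 1 array, Socs3 ran from -0.15 to 0.21, Fabp5 from -0.03 to 0.09, Fgf2 from -0.03 to 0.19 and Optn from -0.02 to 0.20. Causes were not tested.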
